A study of Mus musculus with 12 samples.

Results

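NR5A1(+) cells of XX fetal mouse gonads kept in organ culture were compared with NR5A1(+) cells of XX gonads labelled E11.5, with 2 libraries in each group. NR5A1 is a nuclear receptor found in the somatic precursors of the gonad and of the adrenal cortex. The cultured tissue was taken at E10.8 as a block that held both gonads, the mesonephros, the aorta and mesenchyme. Per the labels' protocols, it lay on membrane filters for 19.2 h in high-glucose DMEM with 10% horse serum, and the control group is the one titled without Dfo, an agent the study added to other XY cultures. All 12 libraries of the study carry the genotype Nr5a1-hCD271, whose name joins the Nr5a1 gene to hCD271, a human cell-surface protein, and the titles call the E11.5 samples WT. The labels give the same culture text for the E11.5 samples, so how those gonads were collected is not settled. Culture, stage and any batch therefore cannot be told apart in this comparison. Total RNA was made into stranded SMART-Seq libraries, and the values are TPM, transcript abundances corrected for transcript length and scaled to the same total in every library. The comparison covers the 13533 gene symbols, of 24411 in all, that had at least 1 TPM in at least 2 of these 4 libraries. Of these members, 12106 reached 1 TPM in all 4 libraries, 166 reached it only in cultured libraries and 193 only in E11.5 libraries. The filter fixed the direction of the last 2 sets, of which 36 members were called higher and 40 lower in culture.

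Between 14578 and 15456 symbols were above 0 in the 4 XX libraries. Rpph1, the RNA of ribonuclease P, took 6.96% and 7.20% of the TPM total in the cultured XX libraries and 8.57% and 11.47% in the E11.5 XX libraries. TPM gives no sequencing depth, so depth is unknown. The labels do not say whether replicates are separate embryos or pools, and p-values therefore reflect a spread between samples that may be technical. Xist stood at 124 to 175 TPM in the 4 XX libraries, and 4 Y-linked genes summed to at most 0.18 TPM there. The other 8 libraries (3 cultured control XY, 3 cultured XY with Dfo and 2 E11.5 XY, of the same genotype) enter only through the shared estimate of spread and through the test against XY. Among them, 2 libraries titled XY with Dfo held 13.6 and 24.6 TPM of Xist, while the third held 0.28. Cultured control XY replicates 1 and 2 differed by a median of 0.07 on the log2 scale over 4928 well expressed genes, against 0.13 between the cultured XX libraries and 0.19 between the E11.5 XX libraries. The defining genes of the gonadal somatic line were present in all 4 libraries. Nr5a1 itself stood at 239 and 212 TPM in culture and 211 and 145 TPM at E11.5, and Wt1, Gata4, Lhx9 and Emx2 lay between 164 and 346 TPM in every library.

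All 20 genes of cholesterol synthesis and 14 of 20 of fatty acid synthesis were called higher in the cultured cells, and 17 of 25 endothelial and 6 of 11 erythroid markers were called lower. Of the 43 gene lists examined, cholesterol synthesis had the highest median change and the endothelial markers the lowest. Of the 13533 members, 1670 (12.3%) passed the test, 1356 (10.0%) higher and 314 (2.32%) lower in culture. The counts of calls in single lists are to be read against these shares. The test was limma on log2(TPM + 1) with Benjamini-Hochberg adjustment, and calls were made at an adjusted p under 0.05. On the log2(TPM + 1) scale the fold of a low gene is understated. At least 2-fold changes were called for 321 members upward and 198 downward. The median member was 0.17 higher in culture on the log2 scale, and this shift depends on the scaling. With median-of-ratios scaling the median member stood at -0.00658 and the calls split into 535 higher and 450 lower. Quantile normalization gave 537 higher and 381 lower, and rescaling without the 50 most abundant genes gave 823 higher and 356 lower. Small upward changes are therefore read here against 0.17, and 465 of the calls higher and 232 of the calls lower held under all 3 scalings. Without E11.5 replicate 2 only 507 members were called, against 1542 without E11.5 replicate 1, 675 without cultured replicate 1 and 898 without cultured replicate 2. With the 4 XX libraries alone 671 were called, and with the close cultured XY and Dfo replicates averaged, 1029. Under all 15 alternatives tried, 274 of the calls higher and 51 of the calls lower held.

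**Figure D1:**
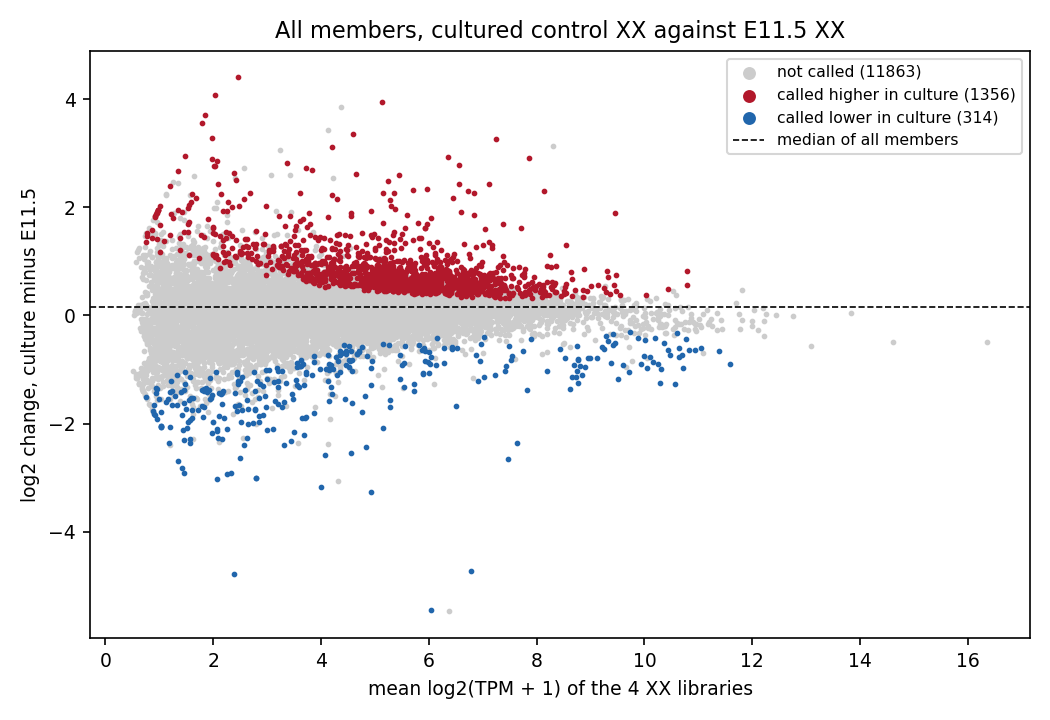
Log2 change between cultured control XX and E11.5 XX (vertical axis) against the mean log2(TPM + 1) of the 4 XX libraries (horizontal axis), 1 point per member. Red points are the 1356 members called higher in culture, blue points the 314 called lower, and the dashed line is the median member at 0.17.

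Cholesterol is built from acetyl-CoA through mevalonate and squalene to lanosterol, which is then trimmed to cholesterol. The genes of this route share a control: when sterols in the endoplasmic reticulum are low, SCAP carries the SREBP transcription factors to the Golgi, where they are cut and freed to act on sterol regulatory elements. INSIG proteins hold SCAP back when sterols are plentiful, and NF-Y, which binds CCAAT boxes, acts beside SREBP at many of these promoters. In the gonad, cholesterol is also the raw material of steroid hormones.

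Promoter letters are shown first, because the sterol genes moved together. RefSeq windows of GRCm38.p6, from 250 bases before to 50 after each gene's start, were found for 15 of the 20 cholesterol synthesis genes. On either strand, CCAAT stood in 14 of the 15 (93.3%), against 41.1% of all 27025 genes with a window and 42.9% of the 10208 members with one. Some genes have several windows, and a gene counted if any of its windows held the letters. CCAAT stood in 60% of the 10 SREBP control and sterol uptake genes with a window. It stood in 64.7% of the 17 such fatty acid synthesis genes and in 45.6% of the 1024 such members called higher. The sterol regulatory element letters TCACNCCAC stood in 1 of the 15 (6.67%), Hmgcs1, against 1.44% of all genes with a window, on either strand. They stood in 0 of the 10 SREBP control and sterol uptake genes and in 1 of the 17 fatty acid synthesis genes. Variants of this pattern were not searched. No match of one motif overlapped a match of the other in Hmgcs1, while CCAAT and ATTGG share letters in Fasn. The stretches printed here lie before the start site, outside every exon of GENCODE M21, read along the gene's strand, with CCAAT or its complement ATTGG and the sterol regulatory element in capitals. Hmgcs1 holds both motifs at chr13:119690104-119690320 (plus strand). Mvd lies at chr8:122443435-122443492 (minus strand), Lss at chr10:76531533-76531557 (plus), Sc5d at chr9:42264310-42264334 (minus), Insig1 at chr5:28071186-28071210 (plus), Srebf2 at chr15:82147124-82147148 (plus) and Fasn at chr11:120824592-120824647 (minus).
Hmgcs1: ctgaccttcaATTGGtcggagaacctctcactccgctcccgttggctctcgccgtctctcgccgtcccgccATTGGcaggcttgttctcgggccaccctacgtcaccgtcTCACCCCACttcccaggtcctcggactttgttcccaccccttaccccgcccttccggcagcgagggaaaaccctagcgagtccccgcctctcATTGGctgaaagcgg
Mvd: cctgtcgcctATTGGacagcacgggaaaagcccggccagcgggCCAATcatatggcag
Lss: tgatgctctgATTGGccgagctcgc
Sc5d: ccggctgctgATTGGccggctgcct
Insig1: ccctcctcccATTGGctccggcggc
Srebf2: tcgcgcgccgATTGGctaatgcaag
Fasn: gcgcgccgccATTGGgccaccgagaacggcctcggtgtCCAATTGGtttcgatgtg
A match is a description of the letters and not a shown binding site. All 7 of these genes were called higher in the cultured cells. They were picked from lists in which 20 of 20, 9 of 16 and 14 of 20 members were called higher. Their calls therefore do not link the letters to the change. Acacb, which was not called, also has CCAAT before its start site.

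All 20 genes of the cholesterol synthesis list were tested, and all 20 were called higher in culture, with log2 changes from 0.92 to 3.35 and a median of 2.27, against 0.17 for all members. Together they summed to 4104 and 3995 TPM in the cultured libraries and to 830 and 700 TPM at E11.5. No cultured library overlapped an E11.5 library for any of the 20, while 54.3% of all members also had no overlap between these groups of 2. Under all 15 alternatives 19 of the 20 calls held, and Ebp, the sterol isomerase, was the exception (16.3 and 16.4 TPM in culture, 10.6 and 6.25 TPM at E11.5, log2 change 0.92 ± 0.27 SE, adjusted p = 0.043). The list was written with earlier results of these data known, so its count is no independent evidence of a direction.

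The early enzymes make mevalonate and turn it into isoprenoids. Hmgcs1, which makes HMG-CoA, stood at 636 and 612 TPM in culture and 148 and 106 TPM at E11.5 (log2 change 2.30 ± 0.15 SE, adjusted p = 2.33e-06). The E11.5 libraries differed more from each other than the cultured ones did, and the groups did not overlap. Acat2, the first thiolase of the route, went from 52.2 and 45.0 TPM at E11.5 to 196 and 176 TPM in culture. Of the mevalonate kinases and the decarboxylase, Mvk had a log2 change of 1.43, Pmvk of 1.69 and Mvd of 2.59. Idi1, which isomerises isopentenyl diphosphate, had a log2 change of 2.27. Fdps, the farnesyl diphosphate synthase that feeds both sterols and protein prenylation, reached 644 and 625 TPM from 90.5 and 77.3 TPM (log2 change 2.91 ± 0.10, adjusted p = 7.08e-09), the highest culture level of the list.

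The committed steps to lanosterol changed in the same direction. Fdft1, squalene synthase, stood at 196 and 176 TPM in culture and 48.2 and 33.5 TPM at E11.5. Sqle, squalene epoxidase and a second control point of the route, stood at 238 and 231 TPM and 50.05 and 43.9 TPM. Lss, which closes squalene epoxide into lanosterol, had the largest change of the list, from 6.95 and 6.17 TPM to 77.7 and 74.5 TPM (log2 change 3.35 ± 0.12 SE, adjusted p = 7.08e-09). Among the enzymes that trim lanosterol, Msmo1 (chromosome 8, 64718139 to 64733792, mm10), the sterol methyl oxidase, stood at 486 and 451 TPM in culture and 48.2 and 47.5 TPM at E11.5 (log2 change 3.27 ± 0.12, adjusted p = 7.08e-09). The replicates of each group differed little beside that gap. Cyp51, the lanosterol demethylase, had a log2 change of 2.43, and the reductase Tm7sf2 one of 2.73. Nsdhl and Hsd17b7, which complete the removal of the methyl groups, had log2 changes of 2.26 and 2.26. Of the late enzymes, Sc5d and Dhcr7 had log2 changes of 2.27 and 2.14.

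**Figure D2:**
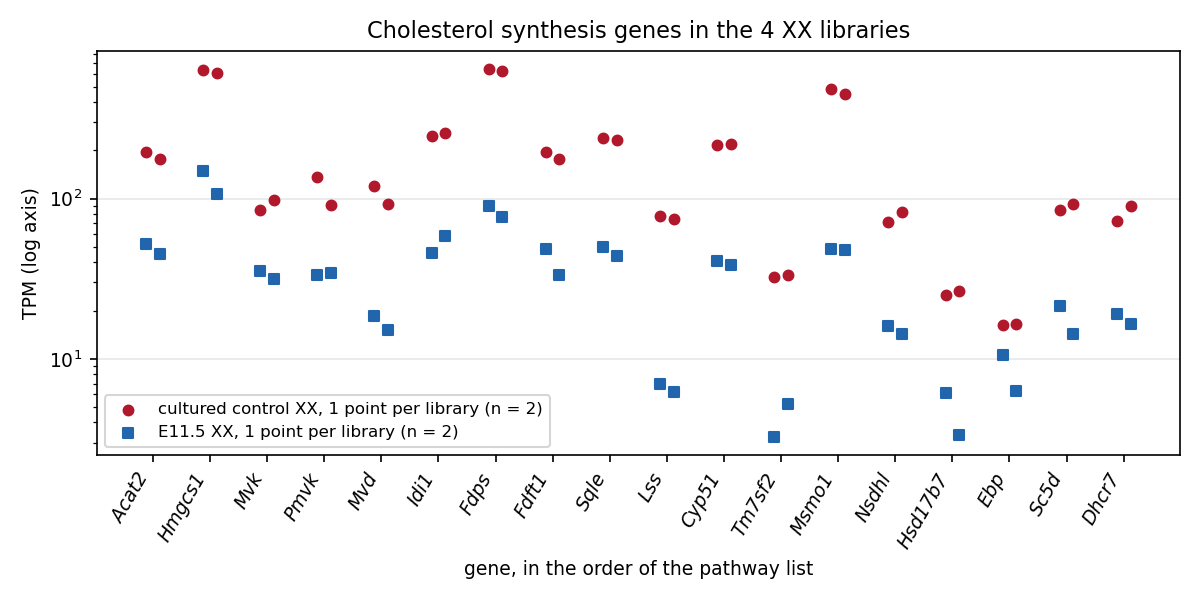
TPM on a log axis of 18 of the 20 cholesterol synthesis genes, 1 point per library (red circles, cultured control XX; blue squares, E11.5 XX). Every red point lies above both blue points of its gene, with the narrowest gap at Ebp.

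The regulators and uptake genes of the same system moved in part. Of 16 members, 9 were called higher and 0 lower, with a median log2 change of 0.79, and 7 of the calls held under all 15 alternatives. Insig1, itself a feedback target that holds SCAP back, stood at 226 and 222 TPM in culture and 33.6 and 24.2 TPM at E11.5 (log2 change 2.93 ± 0.16 SE, adjusted p = 2.89e-07). The transcription factor genes were higher too, Srebf2 with a log2 change of 1.60 and Srebf1 with 1.40. Lrp8, a lipoprotein and reelin receptor, rose from 1.5 and 1.19 TPM at E11.5 to 9.45 and 8.66 TPM in culture. By contrast, Scap stood at 49.6 and 47.4 TPM and 43.0 and 36.0 TPM (adjusted p = 0.202), and the protease gene Mbtps1 at 192 and 188 TPM and 198 and 164 TPM (adjusted p = 0.743), neither of them called.

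A list of sterol efflux and storage genes, some of them targets of the oxysterol receptor LXR, gave 2 calls higher and 0 lower among 8 members. Apoe, the lipid carrier, stood at 436 and 459 TPM in culture and 242 and 174 TPM at E11.5 (log2 change 1.12 ± 0.21 SE, adjusted p = 0.00499). Soat1, which esterifies cholesterol for storage, stood at 184 and 189 TPM and 132 and 113 TPM (log2 change 0.61 ± 0.13, adjusted p = 0.0126). Both calls held under the 3 scalings, but the list had 1 call without cultured replicate 1 and 0 without E11.5 replicate 2. The exporters Abca1 (28.2 and 32.0 TPM in culture, 25.5 and 24.0 TPM at E11.5) and Abcg1 (1.96 and 0.54 TPM, 3.07 and 3.01 TPM) were not called.

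Fatty acid synthesis and desaturation, the branch governed mainly by SREBF1, had 14 of 20 members called higher and 0 lower, with a median log2 change of 1.09. Under all 15 alternatives 11 of the 14 calls held. Scd1 (chromosome 19, 44394455 to 44407879, mm10), which puts the first double bond into saturated fatty acids, stood at 129 and 144 TPM in culture and 8.96 and 7.07 TPM at E11.5 (log2 change 3.94 ± 0.20 SE, adjusted p = 1.39e-07). Scd2, the more abundant desaturase gene here, stood at 1362 and 1355 TPM and 409.9 and 323 TPM (log2 change 1.90 ± 0.12, adjusted p = 1.17e-06). Its groups lay far apart, and the replicates of the cultured group nearly coincided. Fasn, fatty acid synthase, had a log2 change of 1.70, Acaca, which makes malonyl-CoA, one of 1.62, and the elongase Elovl6 one of 1.61. Fads1, a desaturase of polyunsaturated fatty acids, went from 97.2 and 86.2 TPM to 235 and 218 TPM. Acacb, the isoform tied to the mitochondrial surface, stood at 1.21 and 2.27 TPM in culture and 2.46 and 1.58 TPM at E11.5 and was not called, a gene picked out after its values were seen.

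Genes of fatty acid breakdown and PPAR targets split, with 1 of 17 called higher and 3 lower. Angptl4, a secreted inhibitor of lipoprotein lipase, stood at 38.2 and 42.5 TPM and 105 and 68.2 TPM (log2 change -1.06 ± 0.26, adjusted p = 0.0216), a call lost under at least 1 alternative. Pdk4, a kinase that shuts off pyruvate dehydrogenase, was called lower as well (1.39 and 0 TPM in culture, 6.23 and 2.61 TPM at E11.5, adjusted p = 0.0347), a gene picked out after its values were seen. Its call was lost under 9 of 14 alternatives, with adjusted p-values from 0.0125 to 0.195, the highest without cultured XX replicate 2.

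Iron enters most cells bound to transferrin, and iron regulatory proteins match uptake and storage to supply. Of 22 iron handling members, 6 were called higher and 0 lower, but the list's median log2 change of 0.11 lay below the 0.17 of all members. Tfrc (chromosome 16, 32608920 to 32632794, mm10), the transferrin receptor, stood at 107 and 105 TPM in culture and 35.6 and 32.3 TPM at E11.5 (log2 change 1.61 ± 0.17 SE, adjusted p = 0.000117). Slc11a2, the iron importer of endosomes, stood at 43.1 and 50.5 TPM and 23.0 and 21.96 TPM (log2 change 1.02 ± 0.17, adjusted p = 0.00262). Slc40a1, ferroportin, the exporter, was higher as well, at 21.9 and 26.7 TPM and 9.88 and 12.1 TPM (log2 change 1.07 ± 0.19, adjusted p = 0.00394). These 3 calls held under all 15 alternatives. Without cultured replicate 1, cultured replicate 2 or E11.5 replicate 2 the list had 3 calls higher. Calls for the storage subunit gene Ftl1 and for Pcbp1 and Aco1 did not, and the other ferritin subunit gene, Fth1, stood at 1091 and 1033 TPM and 954 and 969 TPM (adjusted p = 0.556).

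Endothelial cells line blood vessels, and the explant held the aorta. Their markers had more calls lower than any other of the 43 lists examined, which leave out the histone genes given at the end, where 45 of 64 were called lower. All 25 were tested, 17 were called lower (68%, against 2.32% of all members) and 0 higher, and the median log2 change was -1.45. Under the 3 scalings 13 to 14 of them were called lower, and 7 calls held under all 15 alternatives. The count lower was 11 without cultured replicate 2 and 8 without any 1 of the other 3 XX libraries. Fewer endothelial cells in the sample and less RNA per cell cannot be told apart in these bulk libraries. The 25 markers summed to 223 and 259 TPM in culture and to 777 and 671 TPM at E11.5, and 22 of the 25 did not overlap between the groups, against 54.3% of all members. Aplnr (chromosome 2, 85136225 to 85139923, mm10), the apelin receptor of venous and sprouting endothelium, stood at 4.11 and 4.63 TPM in culture and 53.2 and 41.7 TPM at E11.5 (log2 change -3.17 ± 0.26 SE, adjusted p = 9.93e-06). Esam (chromosome 9, 37528078 to 37538319, mm10), an adhesion molecule of endothelial junctions, stood at 2.61 and 5.45 TPM and 21.9 and 24.7 TPM (log2 change -2.33 ± 0.30, adjusted p = 0.000557). In neither gene did the groups overlap. Kdr, the main VEGF receptor, stood at 31.1 and 35.5 TPM and 88.7 and 74.7 TPM (log2 change -1.27 ± 0.16, adjusted p = 0.000407). Cd34, shared by endothelium and blood precursors, had a log2 change of -2.58, the transcription factor gene Erg one of -1.76 and the TGF-beta co-receptor gene Eng one of -2.16. Pecam1 (log2 change -1.497 ± 0.39 SE, adjusted p = 0.0275) and Cdh5 (log2 change -1.40 ± 0.40, adjusted p = 0.0395), the classical junction markers, were called lower as well. The Pecam1 call was lost under 5 of 15 alternatives. The Cdh5 call was lost under 9 of 15, all 3 scalings among them. Esm1, a marker of sprouting tip cells, was listed at 0 in 1 cultured library and at 7.83 TPM in the other, against 1.32 and 0.90 TPM at E11.5.

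Erythroid markers gave 6 calls lower and 0 higher among 11 members, with a median log2 change of -1.39. The 15 markers found in the files, of 16 written, untested ones included, summed to 275 and 246 TPM in culture and to 1866 and 1340.5 TPM at E11.5. Hbb-y, an embryonic beta-like globin gene, stood at 90.8 and 53.3 TPM in culture and 517 and 384 TPM at E11.5 (log2 change -2.66 ± 0.70 SE, adjusted p = 0.0274), and Hbb-bh1, another, at 11.2 and 6.66 TPM and 60.1 and 51.3 TPM (log2 change -2.55 ± 0.53, adjusted p = 0.00972). Hba-a1, an adult alpha globin gene, stood at 21.6 and 19.4 TPM and 705 and 460.5 TPM. Its near-identical copy Hba-a2 stood at 47.9 and 66.7 TPM in culture and 0 and 27.3 TPM at E11.5, so how reads were split between the copies is uncertain. Hba-a1 was the erythroid call that held under all 15 alternatives. The list had 1 call lower without E11.5 replicate 2 and 2 without any 1 of the other 3 XX libraries.

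**Figure D3:**
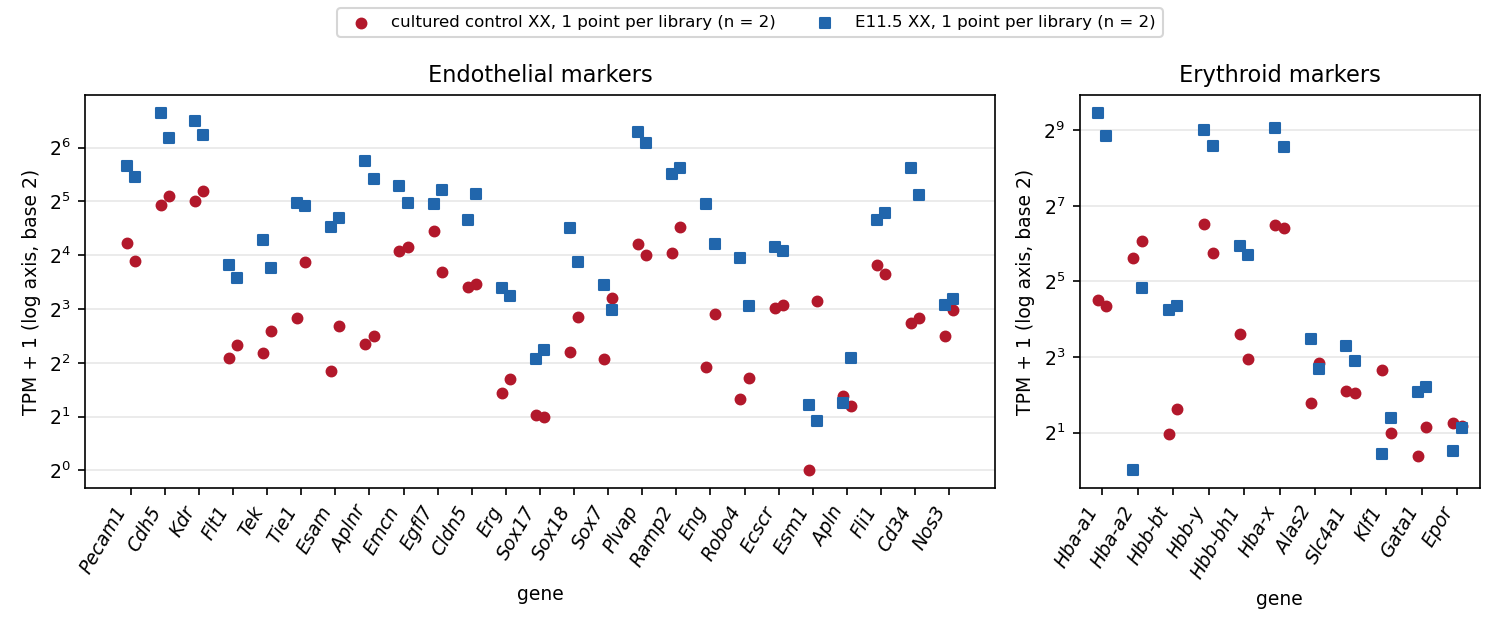
TPM + 1 on a log axis of the 25 endothelial markers (left) and the 11 tested erythroid markers (right), 1 point per library (red circles, cultured control XX; blue squares, E11.5 XX). For Aplnr both blue points lie far above both red points, while Esm1, Apln, Sox7, Alas2 and Klf1 overlap between groups.

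Markers of the other cells that an explant could hold varied in their share of calls, to be read against the 10.0% of all members called higher and the 2.32% called lower, and the sums given here cover each whole list. Macrophage markers gave 1 call higher and 0 lower of 15, Fcer1g, a signalling chain of Fc receptors, at 15.2 and 24.2 TPM in culture and 3.67 and 5.88 TPM at E11.5 (adjusted p = 0.0362). Their sum was 83.5 and 118 TPM in culture and 64.8 and 57.7 TPM at E11.5, with Csf1r at 5.75 TPM at most, Adgre1 at 3.39, Cx3cr1 at 2.75 and Ptprc at 1.13 TPM at most in the 4 libraries. The Fcer1g call was lost under 10 of 15 alternatives, all 3 scalings among them. Germ cell markers gave 0 calls higher and 1 lower of 14, Pou5f1 (1.04 and 0.68 TPM and 6.42 and 8.42 TPM, adjusted p = 0.0174). That list summed to 677 and 709 TPM in culture and 637 and 596 TPM at E11.5, nearly all of it from Ifitm1, which somatic cells also make. Dazl was listed at 0 in both cultured libraries and stood at 1.93 and 1.57 TPM at E11.5, with an adjusted p of 0.0648. Mesonephric epithelium gave 1 call higher of 13, Spp1, and 1 lower, Epcam, the epithelial adhesion gene (11.3 and 9.26 TPM and 22.8 and 19.9 TPM, adjusted p = 0.0201), and its sums were 143 and 163 TPM in culture and 145 and 136 TPM at E11.5. Limma called 0 of 17 mesenchyme markers, with 2 at an unadjusted p below 0.05, and their sums were 2141 and 2259 TPM in culture and 2157 and 1973 TPM at E11.5. Perivascular and smooth muscle markers gave 4 calls higher and 0 lower of 12 (33.3% called), with 2 calls without any 1 of the XX libraries, and summed to 439 and 517 TPM in culture and 373 and 315 TPM at E11.5. Tagln, a calponin-related actin binder, stood at 76.3 and 102 TPM in culture and 13.3 and 16.9 TPM at E11.5 (log2 change 2.48 ± 0.38 SE, adjusted p = 0.00163), and Myh11, smooth muscle myosin, at 36.2 and 40.0 TPM and 19.2 and 11.99 TPM (adjusted p = 0.00261). Both held under all 15 alternatives. Neural crest and neuron markers gave 2 calls higher and 0 lower of 17, Nefm, a neurofilament, and Hand2, a transcription factor of sympathetic cells. The list median was -0.06, and the sums were 241 and 294 TPM in culture and 211 and 201 TPM at E11.5. Nefm lost its call under 6 of 15 alternatives and Hand2 under 13, with all 3 scalings among them for both. Coelomic epithelium markers gave 2 calls higher and 0 lower of 10, Lrrn4 and Krt19, and both were lost under at least 1 of the 3 scalings, with sums of 1095 and 1047 TPM in culture and 933 and 822 TPM at E11.5. The part of any of these cell types in the other differences was not tested.

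The genes that define the early gonad were called at the rate of all members. Of 20 bipotential gonad members 2 (10%) were called higher, against 10.0% of all members, and 0 lower, with a median log2 change of 0.27. Nr5a1 had a log2 change of 0.36 ± 0.17 SE (adjusted p = 0.175), with cultured replicate 2 and E11.5 replicate 1 at nearly the same level. Wt1, needed for the gonadal ridge to form, stood at 346 and 312 TPM in culture and 246 and 241 TPM at E11.5 (log2 change 0.43 ± 0.09, adjusted p = 0.0117). Zfpm2, the cofactor of GATA4, was the other call (log2 change 0.57, adjusted p = 0.0389). Each of these calls was lost under at least 1 of the 3 scalings. Gata4 (289.9 and 295 TPM and 228 and 164 TPM, adjusted p = 0.0608) and Lhx9 (184 and 172 TPM and 184 and 169.8 TPM, adjusted p = 0.974) were not called.

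Ovarian differentiation depends on WNT4 and RSPO1, which stabilise beta-catenin, and later on FOXL2 and its target follistatin. Of the 23 members of this list 2 were called higher and 3 lower. Wnt4 stood at 220.3 and 214 TPM in culture and 151 and 118 TPM at E11.5 (log2 change 0.70 ± 0.14 SE, adjusted p = 0.0079). Lgr4, a receptor for RSPO proteins, stood at 247 and 231 TPM and 157 and 139 TPM (log2 change 0.69 ± 0.11, adjusted p = 0.0022), and its call held under all 15 alternatives while that of Wnt4 was lost under at least 1 of the 3 scalings. Fst, follistatin, which binds activins, was lower, at 39.4 and 40.5 TPM against 98.0 and 74.8 TPM (log2 change -1.08 ± 0.26, adjusted p = 0.0198). Irx3, a homeobox gene of the pregranulosa programme, was lower too, at 8.42 and 6.21 TPM against 22.3 and 16.2 TPM (adjusted p = 0.0246). The Fst and Irx3 calls held under the 3 scalings but not under every alternative. Foxl2 stood at 3.05 and 3.43 TPM in culture and 11.9 and 10.1 TPM at E11.5, a gap without overlap that did not pass the test (log2 change -1.499 ± 0.55, adjusted p = 0.0915). Rspo1 (83.7 and 71.1 TPM and 76.0 and 72.2 TPM, adjusted p = 0.823) overlapped between groups. Runx1 (27.8 and 36.1 TPM and 24.5 and 17.4 TPM, adjusted p = 0.0608) and Nr2f2 (296 and 292 TPM and 247 and 253 TPM, adjusted p = 0.191) were not called. Among 18 testis pathway members 2 (11.1%, near the 10.0% of all members) were called higher, Cldn11 and Inhbb, and 0 lower. The Inhbb call was lost under 10 of 15 alternatives, all 3 scalings among them.

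Of 10 steroidogenic genes 2 were called higher and 0 lower. Cyp11a1, the side-chain cleavage enzyme that turns cholesterol into pregnenolone, stood at 92.9 and 66.2 TPM in culture and 17.4 and 19.7 TPM at E11.5 (log2 change 2.03 ± 0.38 SE, adjusted p = 0.00567). Por, the electron donor of microsomal P450 enzymes such as Cyp51, stood at 168 and 152 TPM and 105 and 95.2 TPM (log2 change 0.67 ± 0.12, adjusted p = 0.00401). Star, which brings cholesterol into mitochondria, stood at 16.5 and 15.8 TPM and 16.0 and 8.29 TPM, with overlapping groups (adjusted p = 0.474). The call for Cyp11a1 held under the 3 scalings but not under every alternative, and that for Por held under all 15.

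Immediate early genes are switched on within minutes by growth factors, stress or tissue handling, and encode the FOS, JUN, EGR and KLF factors. In the XX comparison 1 of 28 was called higher and 8 lower in culture, with a median log2 change of -0.34. Fosb stood at 73.9 and 82.8 TPM in culture and 172 and 196 TPM at E11.5 (log2 change -1.22 ± 0.15 SE, adjusted p = 0.00046). Jun stood at 322 and 329 TPM and 475 and 694 TPM (log2 change -0.82 ± 0.16, adjusted p = 0.00612). Klf2, a shear-responsive factor also known from endothelium, had a log2 change of -1.78, and Klf4 one of -1.56. The cultured libraries were lower than both E11.5 libraries for these 4 genes, and E11.5 replicate 2 was the highest of the 4 libraries for each. Atf3 was lower as well (log2 change -0.92, adjusted p = 0.0275), and Fosl2 was the member called higher (log2 change 0.74, adjusted p = 0.0142). Only the Fosb call held under all 15 alternatives. The list had 3 calls lower without cultured replicate 1, 5 without cultured replicate 2, 8 without E11.5 replicate 1 and 1 without E11.5 replicate 2, and these need not be calls of the full set. Egr1, at 293 and 304 TPM in culture and 233 and 328 TPM at E11.5 (adjusted p = 0.78), overlapped between groups. Fos (281 and 315 TPM and 335 and 552 TPM, adjusted p = 0.082) did not overlap but was not called. These last 2 were picked out after their values were seen. Of 13 ERK feedback genes 1, Dusp4, was called higher and 0 lower.

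Genes of amino acid supply and of the integrated stress response were higher in part. The transcription factor ATF4 drives many of them when amino acids are short or the endoplasmic reticulum is stressed. Of 33 members 17 were called higher and 1 lower (54.5% called, against 12.3% of all members), with a median log2 change of 0.59. Of the calls higher 9 held under the 3 scalings and 5 under all 15 alternatives. The list had 8 calls higher without E11.5 replicate 2, and 10 and 9 without cultured replicates 1 and 2. Asns, asparagine synthetase, stood at 227 and 257 TPM in culture and 125 and 99.9 TPM at E11.5 (log2 change 1.11 ± 0.14 SE, adjusted p = 0.000575). Shmt2, the mitochondrial serine hydroxymethyltransferase, stood at 133 and 106 TPM and 62.8 and 52.9 TPM (log2 change 1.03 ± 0.13, adjusted p = 0.000571). Slc7a11, the cystine importer, had a log2 change of 1.47, the serine pathway enzyme gene Psat1 one of 1.01 and the alanyl-tRNA synthetase gene Aars one of 0.88. Ppp1r15a, the phosphatase subunit that ends the stress response, was the member called lower, at 53.6 and 59.7 TPM against 111 and 99.2 TPM (log2 change -0.88 ± 0.13, adjusted p = 0.00143). Atf4 itself, picked out after its values were seen, stood at 219 and 227 TPM and 229 and 271 TPM and was not called (adjusted p = 0.433).

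The unfolded protein response list had 10 of 21 members called higher (47.6%, against 10.0% of all members) and 0 lower, with a median of 0.39. Of its calls 4 held under the 3 scalings. Its count was 3 without cultured replicate 2 or E11.5 replicate 2 and 4 without cultured replicate 1. Hyou1, a chaperone, had a log2 change of 0.75 ± 0.12 SE (adjusted p = 0.00285), Dnajb11 one of 0.74 and Sel1l, of the degradation complex, one of 0.62. NRF2 targets, the oxidative defence genes, had 11 of 21 called higher (52.4%) and 0 lower, with a median of 0.55, and 5 held under the 3 scalings. Without E11.5 replicate 2 this list had 3 calls and without cultured replicate 1 it had 6. Abcc1, an exporter of glutathione conjugates, stood at 48.5 and 43.1 TPM in culture and 24.4 and 19.2 TPM at E11.5 (log2 change 1.04 ± 0.16, adjusted p = 0.00183), and the gene of NRF2, Nfe2l2, had a log2 change of 0.69. Of 17 heat shock genes 2 (11.8%, near the 10.0% of all members) were called higher, Bag3 and Chordc1, and 0 lower. Of 22 p53 targets 4 (18.2%) were called higher and 0 lower, led by Trp53inp1 (log2 change 0.85), and without E11.5 replicate 2 only 1 was called. Hypoxia response genes gave 3 calls higher and 2 lower of 29 (17.2% called, against 12.3% of all members). Bhlhe40, a repressor that also feeds into the clock, stood at 38.6 and 42.2 TPM in culture and 10.1 and 6.71 TPM at E11.5 (log2 change 2.16 ± 0.27, adjusted p = 0.000422). Slc2a1, the glucose transporter, stood at 46.1 and 41.8 TPM and 78.6 and 62.5 TPM and was not called (adjusted p = 0.0697). Glycolysis gave 1 call higher, Aldoc, and 2 lower of 18, Eno1 (418 and 359.6 TPM and 793 and 562 TPM) and Pfkl.

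The growth, matrix and contractile lists had calls in both directions. Their counts are to be read against the 10.0% of all members called higher and the 2.32% called lower. Of 16 insulin and IGF pathway members 3 were called higher and 3 lower. Igfbp5 was higher (log2 change 0.71), and Igfbp2 was lower, at 60.7 and 41.0 TPM in culture against 169 and 153 TPM (log2 change -1.67 ± 0.27 SE, adjusted p = 0.00257). Txnip, a glucose-induced inhibitor of thioredoxin, was lower, at 30.7 and 26.5 TPM against 79.9 and 53.9 TPM (log2 change -1.17). These 3 calls held under all 15 alternatives. Extracellular matrix genes gave 3 calls higher and 1 lower of 21. Vcan and Fn1, which encode versican and fibronectin, were higher (log2 changes 0.84 and 0.57), while Col18a1, a basement membrane collagen, was lower (log2 change -0.83). YAP and serum response targets gave 5 calls higher and 1 lower of 22, with Tagln and Tead1 (log2 change 0.78) among the higher. Ankrd1, a YAP target, was listed at 0 in both E11.5 libraries and stood at 3.41 and 5.27 TPM in culture (adjusted p = 0.00864). It passed the filter only through the cultured libraries, which fixed its direction. Imprinted genes gave 6 calls higher and 0 lower of 25. Impact had a log2 change of 1.70 ± 0.13 SE (adjusted p = 9.29e-06), Peg10 one of 0.85 and Peg3 one of 0.83.

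The remaining lists ranged from 0% to 35.7% of members called, against 12.3% of all members. Circadian clock genes gave 5 calls higher and 0 lower of 14 (35.7%), of which 1, Dbp (log2 change 1.10), held under the 3 scalings. By limma 0 clock genes were called without E11.5 replicate 2. TGF-beta, activin and BMP genes gave 1 call higher and 2 lower of 21, the retinoic acid pathway 1 and 1 of 16, glucocorticoid targets 1 and 1 of 10, and interferon-stimulated genes 2 and 0 of 16. Limma called 0 of 16 Notch pathway genes, with 3 at an unadjusted p below 0.05, and 0 of 29 S-phase genes, with 1 at an unadjusted p below 0.05. Of 34 mitosis genes 0 were called higher and 2, Plk1 and Ube2c, lower. Under the 3 scalings the mitosis calls lower ranged from 6 to 13, so that count depends on the scaling. Cytosolic ribosomal proteins gave 0 calls higher and 10 lower of 79 (12.7%, against 2.32% of all members called lower), with a median of -0.22 and between 5 and 30 calls lower under the 3 scalings. That count was 1 without either cultured replicate or without E11.5 replicate 2. Mitochondrial ribosomal proteins gave 0 higher and 3 lower of 74, and nuclear-encoded respiratory subunits 4 higher and 0 lower of 75.

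**Figure D4:**
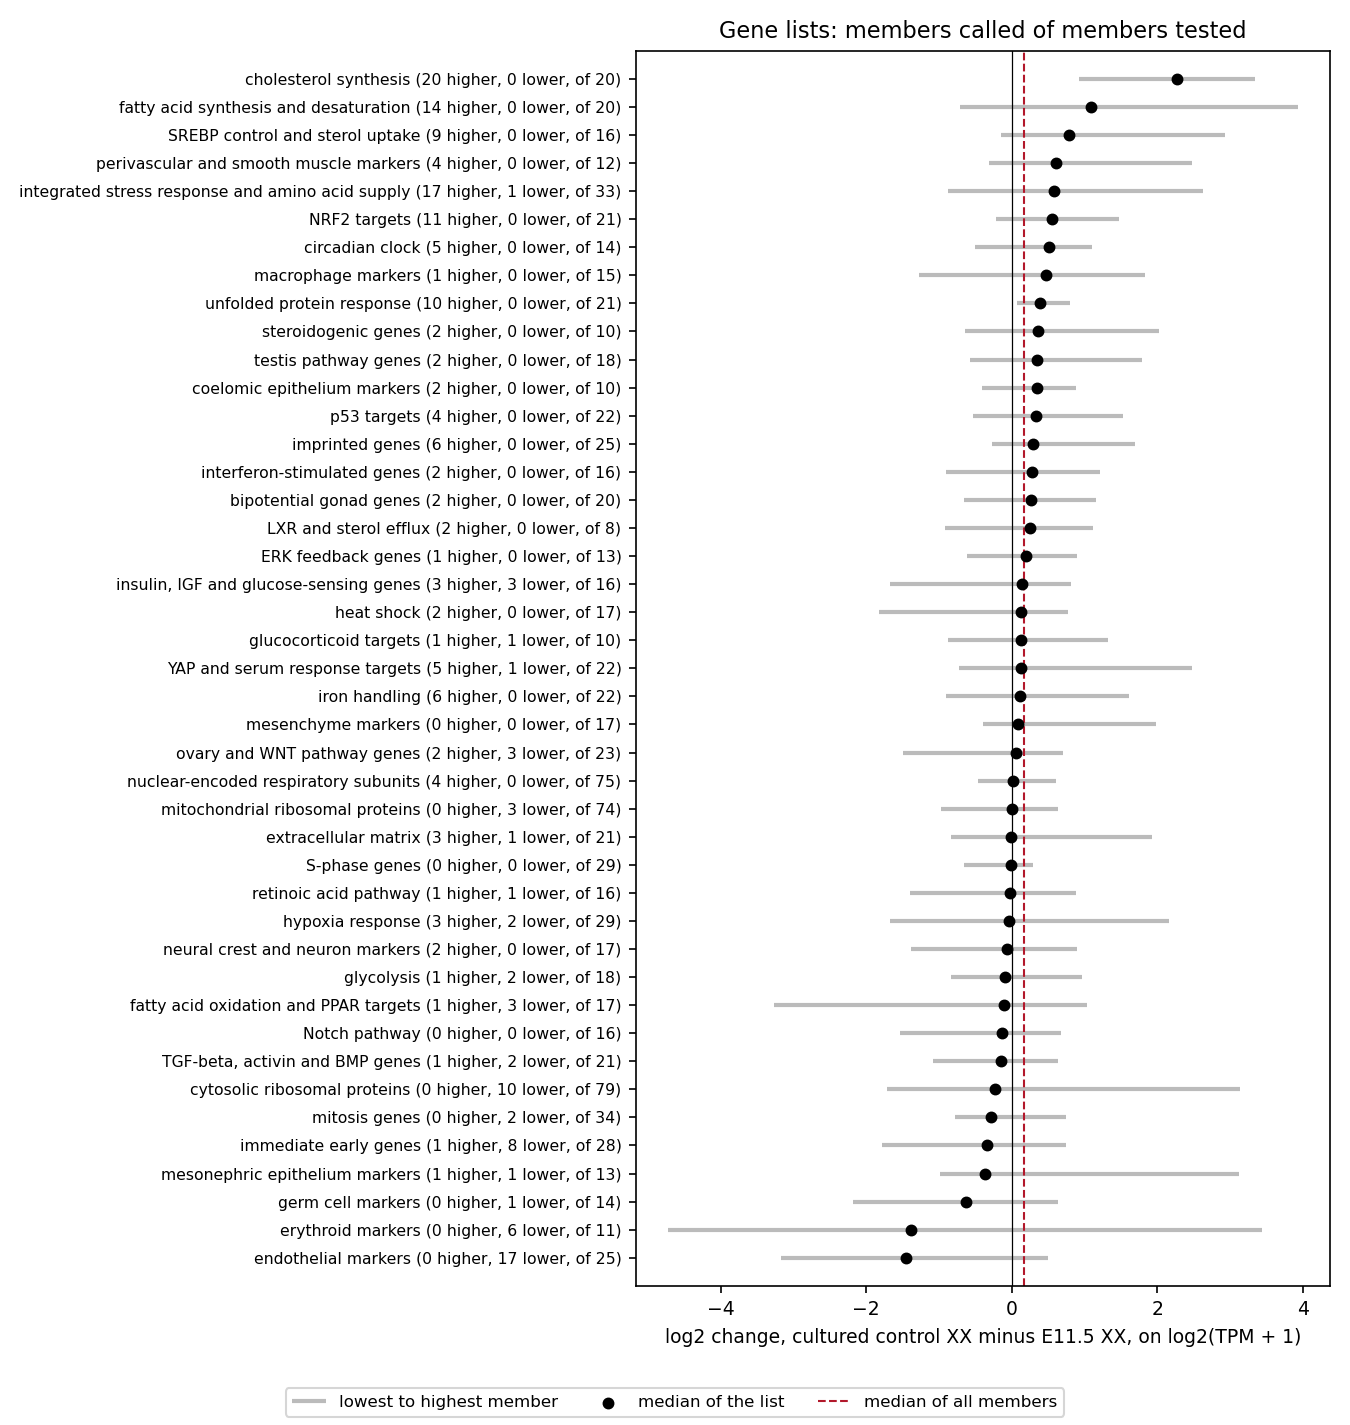
Median log2 change (black points) and range of the members (grey lines) of 43 gene lists, cultured control XX minus E11.5 XX, with the counts of members called in each direction beside each name. The dashed line is the median of all members at 0.17, and the cholesterol synthesis list stands at 2.27 at the top while the endothelial list stands at -1.45 at the bottom.

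Among the largest changes upward, 5 belonged to the lipid genes above (Scd1, Lss, Msmo1, Insig1 and Fdps). The largest was Gpnmb (chromosome 6, 49036546 to 49070929, mm10), a glycoprotein of lysosomes and melanosomes, which stood at 26.4 and 22.3 TPM in culture and 0.06 and 0.35 TPM at E11.5 (log2 change 4.40 ± 0.32 SE, adjusted p = 4.92e-06). Lgals3, galectin-3, stood at 17.0 and 15.0 TPM in culture and was listed at 0 in both E11.5 libraries (adjusted p = 0.000575). Spp1, osteopontin, stood at 52.8 and 53.9 TPM and 10.97 and 2.29 TPM (log2 change 3.12 ± 0.45, adjusted p = 0.00126). Gpnmb, Lgals3 and Spp1 are all also known from macrophages. The macrophage marker list had 11 of 15 members above 0 and 4 below, and higher sums in culture, as given above. Its median was 0.48, against 0.17 for all members. Its defining genes Csf1r, Adgre1 and Cx3cr1 stood at 5.75 TPM or less in the 4 libraries. Csf1r and Cx3cr1 had log2 changes of -0.54 and -1.28 and Adgre1 one of 1.15, and none was called. The part of macrophages in the changes of Gpnmb, Lgals3 and Spp1 was not tested. Sst, somatostatin, stood at 8.83 and 14.4 TPM in culture and 0.61 and 0 TPM at E11.5, and Cryge, a lens crystallin gene, at 15.2 and 6.14 TPM and 1.09 and 0 TPM. Tsacc (16.0 and 9.05 TPM in culture) and Cd300lh (6.40 and 6.97 TPM in culture) were listed at 0 in both E11.5 libraries. The calls for Tsacc, Cd300lh and Cryge were lost under at least 1 alternative. Gpnmb, Lgals3, Sst, Tsacc and Cd300lh passed the filter only through the cultured XX libraries, which fixed their direction.

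Among the largest changes downward were Hba-a1, Aplnr and the beta globins given above. Hbb-b2 and Hbb-bt carry identical values in every XX library, 0.94 and 2.06 TPM in culture and 18.1 and 19.3 TPM at E11.5, so they count as 1 measurement of near-identical copies (adjusted p = 0.041). Their call was lost under 10 of 15 alternatives, all 3 scalings among them. Rhox9, an X-linked homeobox gene of the gonad, stood at 0 and 1.16 TPM in culture and 10.0 and 11.9 TPM at E11.5 (log2 change -3.02 ± 0.39 SE, adjusted p = 0.000551). Hotairm1, a noncoding RNA of the HOXA cluster, was listed at 0 in both cultured libraries and stood at 36.1 and 19.5 TPM at E11.5 (adjusted p = 0.00968). Ifi27l2a and H2-L, genes linked to interferon and antigen presentation, were also listed at 0 in both cultured libraries, against 9.5 and 4.45 TPM and 5.37 and 6.90 TPM at E11.5. Mt2, a metallothionein, stood at 2.31 and 0 TPM and 10.98 and 14.8 TPM, and Fxyd1, a sodium pump regulator, at 0 and 2.02 TPM and 24.9 and 5.73 TPM. Snora23, a small nucleolar RNA, had the largest fitted change of those named and a wide spread between replicates, 0 and 98.4 TPM in culture and 251 and 755 TPM at E11.5 (log2 change -5.45 ± 1.56, adjusted p = 0.04), and its call did not hold under the 3 scalings. Of these genes Hba-a1, Aplnr and Rhox9 held under all 15 alternatives. Hotairm1, Ifi27l2a and H2-L passed the filter only through the E11.5 XX libraries, which fixed their direction.

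The same contrast can be made in XY gonads, with 3 cultured control and 2 E11.5 libraries, which enter the XX contrast only through its estimate of spread. Of the 1356 members called higher in XX, 894 had an XY change above 0, and of the 314 called lower, 246 had one below 0. These counts are to be read against a median XY change of -0.09 over all members. The median XY change was 0.14 over the members called higher in XX and -0.41 over those called lower. The correlation of the 2 changes across all 13533 members was 0.36 (Pearson), a description over genes that are not independent replicates. The difference of the changes, XX minus XY, was called for 317 members (2.34%), 269 (1.99%) above 0 and 48 (0.355%) below 0. Rpph1 took 15.3% to 20.3% of the TPM total in cultured XY and 12.02% and 12.18% at E11.5 XY, against less in culture than at E11.5 in XX. The median difference over all members was 0.25, and the count of calls changes with the scaling and with single libraries. With median-of-ratios scaling 13 were above 0 and 25 below, with quantile normalization 27 and 35, and without the 50 most abundant genes 20 and 23. Leaving out 1 library gave 17 calls without E11.5 XX replicate 2 or cultured XY replicate 1, 19 without cultured XY replicate 2, 21 without cultured XX replicate 1, 74 without cultured XX replicate 2, 27 and 59 without E11.5 XY replicates 1 and 2, and 769 without cultured XY replicate 3. With the close replicates averaged 13 were called, and without the Dfo group 55. Only 8 differences held under all 19 alternatives, 5 above 0, among them Pard3b, Polr2a, Smpx and Zim1, and 3 below 0, Dusp5, Fos and Fosb.

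The sterol genes had positive median changes in both sexes. Their median log2 change was 2.27 in XX and 1.41 in XY, and their sum was 2352, 2383 and 2565 TPM in cultured XY against 854 and 802 TPM at E11.5 XY. The difference was called above 0 for 9 of the 20 genes, among them Lss and Cyp51, whose differences also held under the 3 scalings. Lss stood at 46.2, 46.8 and 49.4 TPM in cultured XY and 10.85 and 11.3 TPM at E11.5 XY, and its XX minus XY difference was 1.34 ± 0.17 SE (adjusted p = 0.00372). The early response genes had medians of opposite sign. Their median log2 change was -0.34 in XX and 0.46 in XY, and 7 of 28 differences were called, all below 0. Fos stood at 104, 126 and 122.76 TPM in cultured XY and 42.1 and 38.3 TPM at E11.5 XY, against 281 and 315 TPM in cultured XX and 335 and 552 TPM at E11.5 XX, and the difference was -2.05 ± 0.25 (adjusted p = 0.00372). For Fosb the difference was -1.87 ± 0.21 (adjusted p = 0.0026), and for Dusp5, an ERK phosphatase, -2.005 ± 0.21 (adjusted p = 0.0026). Endothelial markers had negative medians in both contrasts, -1.45 in XX and -0.73 in XY, and Aplnr had nearly the same change in each (-3.17 and -3.01). The difference was called for 1 of the 25, Erg (-1.82 ± 0.38, adjusted p = 0.0362), and lost under at least 1 of the 3 scalings. Neural crest and neuron markers had a median of -0.06 in XX and 1.41 in XY, with 3 of 17 differences called below 0. They summed to 660, 539 and 425 TPM in cultured XY against 148 and 193 TPM at E11.5 XY, and their part in the other differences was not tested. Erythroid markers summed to 2222, 2556 and 336 TPM in cultured XY, so cultured XY replicate 3 stood apart there.

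**Figure D5:**
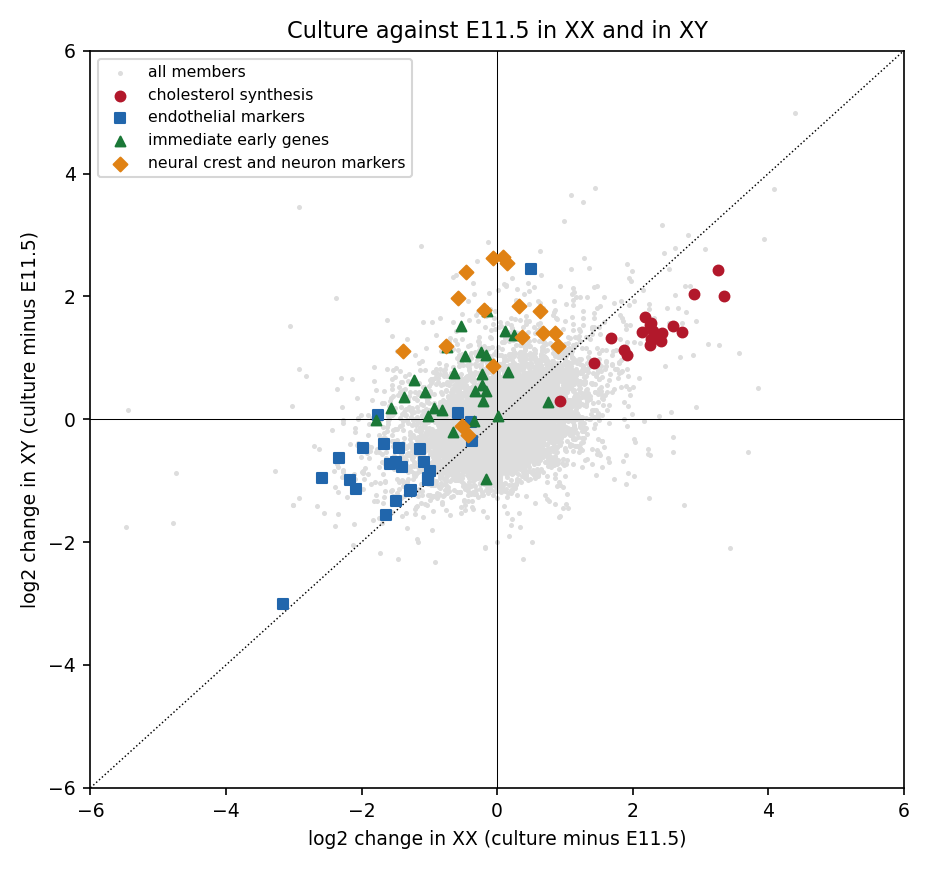
Log2 change between culture and E11.5 in XX (horizontal axis) and in XY (vertical axis) for all members (grey) and 4 gene lists, 1 point per gene, with the dotted line marking equal change. Cholesterol synthesis genes lie to the upper right and below the dotted line, with medians of 2.27 in XX and 1.41 in XY, and the early response genes lie mostly above the line, with medians of -0.34 and 0.46.

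The groups that stood apart varied among the named differences. Pard3b, a cell polarity gene, stood at 33.1 and 46.2 TPM in cultured XX, 7.33 and 7.75 TPM at E11.5 XX, 5.17, 5.04 and 5.61 TPM in cultured XY and 7.64 and 7.88 TPM at E11.5 XY (difference 2.72 ± 0.34 SE, adjusted p = 0.00372). Both cultured XX libraries lay above all libraries of the other 3 groups. Smpx, a small muscle protein gene on the X chromosome, stood at 14.2 and 15.8, 4.09 and 2.04, 6.89, 5.92 and 5.99 and 16.7 and 9.65 TPM in the same order (difference 2.94 ± 0.41, adjusted p = 0.0078), so that E11.5 XY replicate 1 was as high as the cultured XX libraries. Zim1, an imprinted zinc finger gene, had a difference of 1.29 ± 0.14 (adjusted p = 0.0026), and Polr2a, the largest subunit of RNA polymerase II, one of 1.15 ± 0.13 (adjusted p = 0.0026). Npbwr1, a neuropeptide receptor gene, Smcp, Abhd11os and Cbln4 also had called differences above 0 (2.35, 2.81, 3.54 and 2.48), each lost under at least 1 of the 3 scalings. Below 0, Ifi27l2a was listed at 0 in cultured XX and in E11.5 XY but stood at 6.27, 12.6 and 12.4 TPM in cultured XY. Rhox9 (-3.24), Wfdc1 (-2.97), Mt2 (-3.73) and Scg3 (-2.87) were other large differences below 0, and those of Mt2 and Scg3 were lost under at least 1 of the 3 scalings, as was that of H2-L. Wfdc1 stood at 0 and 0.54 TPM in cultured XX and 6.47 and 4.03 TPM at E11.5 XX. It passed the filter only through the E11.5 XX libraries, which fixed the direction of its XX change. H2-L stood at 5.37 and 6.90 TPM at E11.5 XX and at 3.30 TPM in 1 cultured XY library, and was listed at 0 in the other XX and XY libraries of the contrast. Of the ovarian genes Fst was lower in culture in XX and had a log2 change of 0.53 in XY, with a called difference of -1.61 ± 0.36 (adjusted p = 0.0424). That difference held under the 3 scalings but not under all 19 alternatives.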

How the data were processed

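Total RNA of NR5A1(+) cells was sequenced in 12 libraries of 5 groups. The authors deposited TPM per gene symbol; the tools named per the submitters' processing notes are RSEM, R 4.1.2 and STAR 2.7.10b, with mm10 as the build. The annotation, read filters and RSEM version were not given in the sources used here. Mitochondrially encoded genes were not analysed.

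TPM was taken to log2(TPM + 1) for symbols with at least 1 TPM in at least 2 of the 4 XX libraries. Limma 3.58.1 in R 4.3.3 was fitted to all 12 libraries with 1 term per group and a trended prior, without a replicate block, and p-values were adjusted by the Benjamini-Hochberg method over all 13533 members. The difference XX minus XY was a contrast of the same fit. The scripts were tested on simulated data. A call needed an adjusted p below 0.05. Promoter windows are RefSeq's (GRCm38.p6), and gene positions are those of GENCODE M21 on mm10.

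The members, gene lists and tests were chosen with earlier results of these data known. Named genes were the 12 largest calls in each direction without overlap and with 5 TPM or more as the mean of a group, the 6 largest differences in each direction, up to 6 calls per list by smallest p, the cholesterol synthesis genes, and a set of marker and gonad genes; some genes that this rule selects are not reported here. Other named genes were chosen after their values were seen. Alternatives changed the pseudocount, filter, scaling, libraries and block.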

Additional observations from a re-analysis of the deposited data

Results flagged for a closer look

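The results here are named genes whose change between culture and E11.5 differed between XX and XY by the limma test of the difference itself, as XX minus XY on the log2 scale. All rest on 2 cultured XX libraries, 2 E11.5 XX libraries, 3 cultured XY and 2 E11.5 XY libraries, and the count of such calls fell from 317 to 38 with median-of-ratios scaling. Under all 19 alternatives tried, 8 held, among them Smpx (2.94), Pard3b (2.72), Zim1 (1.29), Polr2a (1.15), Fosb (-1.87), Dusp5 (-2.005) and Fos (-2.05).

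Among lipid genes the differences above 0 were Lss (1.34), Insig1 (1.33), Tm7sf2 (1.31), Mvd (1.08), Acaca (1.05), Cyp51 (1.03), Hmgcs1 (0.99), Fdps (0.87), Sqle (0.87), Msmo1 (0.83) and Scd2 (0.71). Lss and Cyp51 held under the 3 scalings, and the others of this group did not. Among early response and stress genes Klf4 (-1.74), Egr1 (-1.32), Jun (-0.97) and Ppp1r15a (-0.84) were below 0, and so was the histone gene Hist1h2ac (-0.83). Imprinted Peg3 (1.05) and Impact (0.82), the Hippo pathway factor gene Tead1 (0.92), the matrix gene Fn1 (0.73) and the gonadal factor gene Wt1 (0.59) were above 0, while follistatin, Fst (-1.61), and the endothelial factor gene Erg (-1.82) were below.

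Of the largest differences, Abhd11os (3.54), Smcp (2.81), Cbln4 (2.48) and Npbwr1 (2.35) were above 0, and Mt2 (-3.73), Rhox9 (-3.24), Wfdc1 (-2.97) and Scg3 (-2.87) below. Ifi27l2a (-6.38) and H2-L (-3.53) have whole groups listed at 0, so their fitted values depend on the pseudocount and are no fold. Outside the lipid genes and the 8 that held under all 19 alternatives, Peg3, Ppp1r15a, Fst, Rhox9, Wfdc1 and Ifi27l2a held under the 3 scalings and the others named here did not. Wfdc1, Ifi27l2a and H2-L passed the filter only through the E11.5 XX libraries, which fixed the direction of their XX change. Whether cell makeup or depth takes part in these differences was not tested.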

How the results depend on the processing

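Of the XX comparison, 1670 members were called with 1356 higher. Median-of-ratios scaling gave 985 (535 higher), quantile normalization 918 (537 higher), rescaling without the 50 most abundant genes 823 higher, the 4 XX libraries alone 671 (510 higher, 161 lower), close replicates averaged 1029 (824 higher, 205 lower), and no filter 198 lower. Leaving out 1 library gave 507 to 1542 calls, 399 to 1373 higher and 108 to 262 lower. For the difference XX minus XY (317 called, 269 above and 48 below 0), median-of-ratios scaling gave 38 (13 above, 25 below), quantile normalization 62 (27 above), rescaling without the 50 most abundant genes 43 (20 above, 23 below), no Dfo group 55 (44 above, 11 below), averaged replicates 13 (8 above, 5 below), no filter 20 below and a filter over all 12 libraries 31 below. Leaving out 1 library gave 17 to 769 calls, 12 to 665 above and 5 to 104 below. The replicate block gave 1659 calls in XX and 1767 in the difference (1556 above, 211 below). Same-numbered XX libraries deviated with r = -0.0345 over 10903 genes. With 2 libraries per group this is 1 correlation, and it cannot show whether same-numbered libraries share a batch. The block is not read as a pairing, and XY libraries were not checked in this way. For the 139 named genes that were called, 1776 of 2076 values under the alternatives kept the call, 300 lost it and 0 changed sign; of 483 values of genes not called, 12 passed the threshold. Of 53 counts of calls in single lists, 45 moved by over 1.5 times under at least 1 alternative. The other counts over all members stayed within 1.5 times the main value. The cause of these shifts was not tested, beyond fewer samples or tests where the setting removes them. Without depth, no limit of detection can be given, and 2 libraries per group limit the precision.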

Other observations

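The lists here were written after the values were seen, so their counts describe these libraries and support nothing. Many lysosomal genes were called higher in the cultured XX cells, to be read against the 10.0% of all members called higher. The lysosome breaks down imported lipoprotein, membranes and proteins in an acid lumen kept by the V-ATPase proton pump, and the factors TFEB and TFE3 drive many of its genes. Of 55 lysosomal enzyme and membrane genes outside the pump and the cathepsins, 27 were called higher and 0 lower, with a median log2 change of 0.79 and 10 members below 0. Of the calls 19 held under the 3 scalings and 14 under all 15 alternatives, and without 1 XX library 14 to 28 were called. Their sum was 3363.5 and 3469.8 TPM in culture and 2097 and 1832 TPM at E11.5. Asah1, acid ceramidase, stood at 166 and 151 TPM in culture and 62.5 and 62.9 TPM at E11.5 (log2 change 1.32 ± 0.10 SE, adjusted p = 9.54e-06), and Cd63, a tetraspanin of late endosomes, at 456 and 439 TPM and 225 and 248 TPM (log2 change 0.92 ± 0.09, adjusted p = 4.75e-05). For both genes the cultured libraries lay above both E11.5 libraries. V-ATPase subunits gave 14 calls higher and 0 lower of 19, with a median of 0.67, of which 6 held under the 3 scalings and 6 under all 15 alternatives, and without 1 XX library 6 to 13 were called. Cathepsins gave 3 calls higher and 1 lower of 10. Ctsl, cathepsin L, stood at 173 and 146 TPM and 78.3 and 65.4 TPM (log2 change 1.14 ± 0.12, adjusted p = 7.65e-05). Of 21 genes of TFEB and lysosomal nutrient sensing, 10 were called higher and 0 lower, while 4 had values below 0, and 6 of the calls held under the 3 scalings, 4 under all 15 alternatives. Without 1 XX library 6 to 10 were called. Among the calls were Flcn, folliculin, and its partners Fnip1 and Fnip2 (log2 changes 1.22, 1.08 and 1.48). In XY the median changes of these 4 lists were 0.53, 0.49, 0.84 and 0.35 in the same order, and 0 differences between XX and XY were called in them by limma.

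Replication-dependent histone genes, which are transcribed in S phase and whose messages mostly lack a poly(A) tail, were mostly called lower in the cultured XX cells. Of 64 tested, 45 were called lower and 0 higher, against 2.32% of all members called lower. Their median log2 change was -0.81, and 63 had a value below 0. Under the 3 scalings 34 of the calls held, under all 15 alternatives 16, and without 1 XX library between 19 and 31 calls were made. The histone genes summed to 38258 and 36598 TPM in culture and to 64220.0 and 66297 TPM at E11.5. Hist1h2ac stood at 747 and 876 TPM and 2017 and 1855 TPM (log2 change -1.26 ± 0.14 SE, adjusted p = 0.000214), and Hist1h4k at 1112 and 1087 TPM and 1734 and 1707 TPM (log2 change -0.65 ± 0.10, adjusted p = 0.0015). Many of these genes are near-identical copies, so values of single genes are uncertain. In XY the median was -0.24, with sums of 59639, 56946 and 52882 TPM in culture and 63765 and 63842 TPM at E11.5, and 4 differences were called below 0. The 29 S-phase genes of the report gave 0 calls.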
